A study of Rattus norvegicus with 6 samples.

Results

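Ccl24 macrophages are described here as the macrophages of rat pancreas that held at least 1 unique molecular identifier (UMI, a count of 1 captured RNA molecule) of Ccl24 and none of Lyve1 or Fcna. A barcode was kept with at least 200 genes and at most 25% mitochondrial UMIs. It was called a macrophage when at least 3 of the 6 genes C1qa, C1qb, C1qc, Csf1r, Cd68 and Ms4a7 were detected and Cd3e, Cd3d and Cd3g were not. By this rule 1229 of 27529 macrophages, among 75981 cells kept, were Ccl24 macrophages. They numbered 287 and 368 in young replicates 1 and 2, 126 and 248 in old replicates 1 and 2, and 198 and 2 in HFHF-old replicates 1 and 2. The remaining macrophages were 20782 with Lyve1 or Fcna, called Lyve1/Fcna macrophages below, and 5518 with none of the 3 genes, called negative macrophages.

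The cells came from pancreases of male Wistar rats, digested with collagenase P and enriched for islets on a density gradient, with 2 rats in each of 3 groups and 1 library per rat. Young rats were 2 months old, old rats had eaten a normal diet from 2 to 20 months of age, and HFHF-old rats had eaten a high-fat high-fructose (HFHF) diet over the same months. The study asked what long feeding with that diet does to the pancreas, and young and old rats on normal feed set age beside it. The paper's methods place the killing of the baseline rats before the long feeding. Age and date of collection then cannot be told apart.

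Ccl24 (eotaxin-2) is a chemokine that binds the receptor Ccr3 and attracts eosinophils, and it is made by alternatively activated macrophages. Lyve1, a hyaluronan receptor, and Fcna, a ficolin of the lectin pathway of complement, are expressed by long-lived tissue macrophages near vessels and connective tissue. Of the genes used with Ccl24 to mark the cells, Ltc4s encodes leukotriene C4 synthase, which makes cysteinyl leukotrienes, Maf is a transcription factor of resident macrophages, and Aif1 (Iba1) is an actin-bundling protein of macrophages and microglia.

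The libraries held 78024 barcodes and between 77387928 and 166875258 UMIs, and the median cell kept held 2547 to 9824 UMIs. Any 2 libraries shared 20 to 69 barcodes, 0.263% to 0.604% of the smaller library. Both HFHF-old libraries stood apart in the macrophage gate, which took 67.6% of the cells of HFHF-old replicate 1 and 0.630% (74 cells) of HFHF-old replicate 2, against 23.6% to 49.5% in the other rats. The 2 Ccl24 macrophages of HFHF-old replicate 2 were too few to be summed, so HFHF-old replicate 1 stands alone for its group in the comparisons of Ccl24 macrophages between groups, and the test takes it to vary as much as the young and old rats did. The 47 negative and 25 Lyve1/Fcna macrophages of HFHF-old replicate 2 did enter the fit of the classes, and its 74 macrophages the fit of all macrophages.

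Ccl24 macrophages were a small share of the macrophages in every rat. They made up 3.80% (95% exact binomial interval 3.38% to 4.25%) and 7.20% (6.50% to 7.94%) of macrophages in the young rats. In the old rats the share was 5.13% (4.29% to 6.08%) and 6.40% (5.65% to 7.22%). In the HFHF-old rats it was 2.34% (2.03% to 2.69%) and 2.70% (0.329% to 9.42%). The young and old rats overlapped, and both HFHF-old rats lay below all others, although the interval of HFHF-old replicate 2 spanned the values of every rat. These intervals cover counting error only.

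Old rats had a mean share of 5.77% ± 0.894 (SD, n = 2) and young rats 5.50% ± 2.41 (n = 2), a difference of 0.269 percentage points (exact permutation test, two-sided, p = 1.0). HFHF-old rats had a mean of 2.52% ± 0.255 (n = 2), a difference of -3.244 points from old rats (exact permutation p = 0.333). The difference of HFHF-old from young rats was -2.975 points (exact permutation p = 0.333), and 0.333 is the smallest p that 2 rats against 2 allow. Any 2 of these comparisons share a group of rats.

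The depth of the cells differed between rats. The median macrophage held 3707, 5044, 8724, 2922, 11230 and 7474.5 UMIs in young 1 and 2, old 1 and 2 and HFHF-old 1 and 2. HFHF-old 1, the deepest, had the lowest share, and the other rats took no such order. The median Ccl24 macrophage held 2410, 4065.5, 6567, 2236.5 and 9639.5 UMIs in young 1 and 2, old 1 and 2 and HFHF-old 1. For thinning, here and below, cells with under 2000 UMIs were left out and the others were cut to 2000 UMIs at random. The macrophage classes were gated after this cut. The cells left out thus depended on the depth of each rat. After thinning the share was 4.41% and 9.66% in young rats, 6.44% and 6.73% in old rats and 1.90% in HFHF-old replicate 1. In HFHF-old replicate 2 it was 0 of 51 macrophages, for which the exact binomial interval reaches 6.98%. The order of old against young turned to -0.452 points after thinning, while the HFHF-old rats were again the lowest. That order depended on the gate. With C1qa, C1qb and C1qc required at 0.4% or more of UMIs, a setting chosen after the data were seen, the share was 3.28% and 6.80% in young rats, 4.42% and 6.21% in old rats, and 1.39% and 5.88% in HFHF-old rats, where HFHF-old replicate 2 rested on 2 of 34 cells. The difference of HFHF-old from old rats was then -1.678 points (exact permutation p = 0.667). As a share of all cells, Ccl24 macrophages were 1.64%, 3.56%, 1.68%, 1.51%, 1.58% and 0.0170% in young 1 and 2, old 1 and 2 and HFHF-old 1 and 2, and HFHF-old differed from old rats by -0.798 points (exact permutation p = 0.667).

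**Figure D1:**
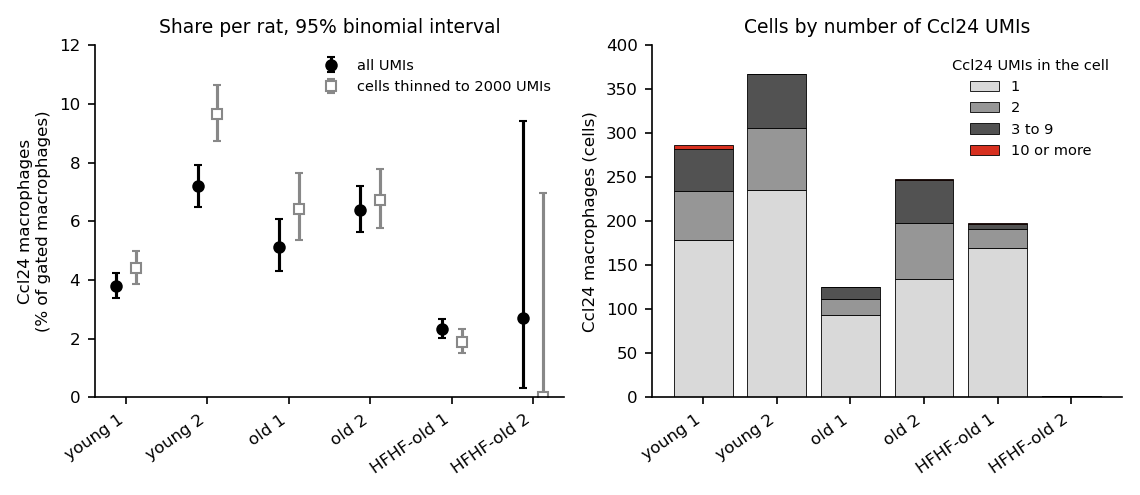
Left, Ccl24 macrophages as a percent of gated macrophages in each rat (y axis), with 95% exact binomial intervals. Filled circles are from all UMIs, and open squares from cells of at least 2000 UMIs thinned to 2000 UMIs. The 2 HFHF-old rats are lowest, and the interval of HFHF-old 2 is wide because its gate held 74 cells. Right, number of Ccl24 macrophages in each rat (y axis), split by the Ccl24 UMIs in the cell, of which 1 is the most frequent number in every rat.

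Most of the cells were chosen on a single molecule. Of the 1229 cells, 816 (66.4%) held exactly 1 Ccl24 UMI, 229 (18.6%) held 2, 176 held 3 to 9 and 8 held 10 or more. Cells with 3 to 9 numbered 47, 62, 13, 49, 5 and 0 in young 1 and 2, old 1 and 2 and HFHF-old 1 and 2. Cells of other types held Ccl24 UMIs too. Fibroblasts were gated by at least 3 of 6 fibroblast genes, with no UMI of Ptprc, C1qa, C1qb or C1qc. B and T cells were also gated with no UMI of these C1q genes. Leaving out cells with C1q RNA can lower the Ccl24 shares of these cells, and this was not tested. Among the fibroblasts, 6.60%, 5.64%, 6.31%, 0.591%, 6.16% and 0% had a Ccl24 UMI. The values were 2.23%, 1.84%, 2.24%, 0.453%, 2.46% and 0% after thinning to 2000 UMIs. Fibroblasts and B cells were gated on all UMIs and then thinned, whereas macrophages were thinned and then gated. The thinned shares of these cells and of macrophages thus rest on unlike gates. In young 2 the macrophages without Lyve1 and Fcna numbered 1216 before thinning and 1566 after it. The median fibroblast held 1723 UMIs in old 2 and 5195 to 9300 in the other rats, and the median negative macrophage 3020 to 8885. Among macrophages without Lyve1 and Fcna the share with a Ccl24 UMI was 23.2%, 30.3%, 15.5%, 14.3%, 11.7% and 4.08%, above the fibroblasts of the same rat in all 6. After thinning it was 24.0%, 23.5%, 14.3%, 13.3% and 9.06% in young 1 and 2, old 1 and 2 and HFHF-old 1. In HFHF-old 2 it was then 0 of 41 cells, no higher than in the fibroblasts. The gap to the fibroblasts was narrowest in the HFHF-old rats. Before thinning, T cells were also below these macrophages in every rat, with a Ccl24 UMI in 0.0699% to 9.33% of cells. B cells were few, and not below in every rat. A Ccl24 UMI was found in 6 of 29 B cells (20.7%) in old 1 and in 2 of 11 (18.2%) in HFHF-old 1, more than in the macrophages without Lyve1 and Fcna of those rats, and in 0% to 3.61% of B cells in the other 4. After thinning the B cells were at 11.5% and 9.09% in old 1 and HFHF-old 1, and the macrophages without Lyve1 and Fcna at 14.3% and 9.06%. The few B cells of these 2 rats do not place the macrophages above them.

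Ccl24 itself was mainly a gene of the Lyve1/Fcna macrophages. A Ccl24 UMI was found in 75.2%, 67.0%, 65.5%, 69.1%, 50.6% and 40.0% of Lyve1/Fcna macrophages in the 6 rats. The Ccl24 macrophages without Lyve1 and Fcna were therefore 5.69%, 12.4%, 10.5%, 14.3%, 5.48% and 16.7% of all macrophages with Ccl24. These values chose the cells and are given without a test.

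Levels of Ccl24 and Ltc4s were read inside the rule and just outside it. A Ccl24 UMI chose all of these cells, so their Ccl24 levels are a description and do not show that the cells are alike. Ccl24 macrophages held 465, 301, 133, 603 and 105 Ccl24 UMIs per 1000000 UMIs (CPM) in young 1 and 2, old 1 and 2 and HFHF-old 1. The Ccl24-positive macrophages just outside the rule, with exactly 1 Lyve1 or Fcna UMI, held 484, 340, 171, 716 and 86.6. Those with 10 or more Lyve1 and Fcna UMIs held 879, 978, 1011, 1141 and 405. Ltc4s went from 122, 125, 26.8, 32.4 and 2.41 CPM inside the rule to 161, 161, 27.7, 37.7 and 7.13 just outside it and 559, 770, 260, 158 and 90.6 at 10 or more. In young and old rats both genes were a little higher just outside the rule than inside it, while in HFHF-old 1 Ccl24 was lower and Ltc4s higher there.

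Whether a count of 0 for Lyve1 and Fcna marks cells without these RNAs was checked on UMIs that a gate had not used. The UMIs of every cell were split at random into 2 equal parts, the gate was applied to 1 part, and the levels were read from the other. This gate took 362, 404, 92, 261 and 122 cells as Ccl24 macrophages in young 1 and 2, old 1 and 2 and HFHF-old 1, which are not the same cells as the 1229. In the unused part, cells gated as Ccl24 macrophages had 377, 142, 83.8, 186 and 51.4 CPM of Lyve1 in young 1 and 2, old 1 and 2 and HFHF-old 1. Negative macrophages held 121, 70.6, 22.1, 37.1 and 48.5, and Lyve1/Fcna macrophages 1037, 384, 600, 423 and 1182. The Ccl24 macrophages lay between the other classes in all 5 rats, close to the negative class in HFHF-old 1.

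Fcna behaved alike. Its level in the unused part was 269, 153, 121, 363 and 47.2 in the Ccl24 macrophages, 100, 113, 29.4, 66.9 and 49.7 in the negative macrophages, and 1316, 498, 890, 1418 and 779 in the Lyve1/Fcna macrophages. In HFHF-old 1 the Ccl24 macrophages were not above the negative class. A Lyve1 UMI was present in the unused part of 47.2%, 31.9%, 31.5%, 24.5% and 28.7% of the cells gated as Ccl24 macrophages. In the negative macrophages it was present in 24.0%, 19.6%, 10.9%, 6.53% and 22.9%, fewer in all 5 rats and by little in HFHF-old 1. A count of 0 in this gate thus did not mean a count of 0 in the remaining UMIs, in either class, and whether these UMIs came from the cells themselves was not tested. The 1229 cells, gated on all of their UMIs, hold no Lyve1 UMI and leave none unused, so the words "without Lyve1" could not be checked on them directly.

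**Figure D2:**
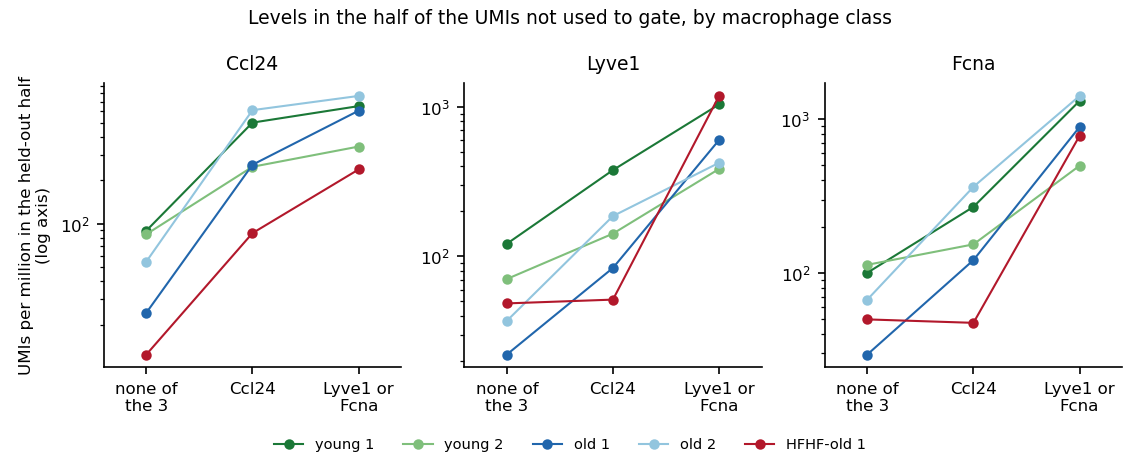
Levels of Ccl24, Lyve1 and Fcna (CPM, log axis) in the part of each cell's UMIs that was not used to gate, for negative macrophages (none of the 3), Ccl24 macrophages and Lyve1/Fcna macrophages. Each line is 1 of 5 rats, and Lyve1 in the Ccl24 macrophages (51.4 to 377) lies between the other classes in each.

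In the sum of all macrophages, whether or not they held Ccl24, the HFHF-old rats had the lowest levels of Ccl24. The level was 482 and 266 CPM in young rats, 319 and 392 in old rats and 163 and 120 in HFHF-old rats. Young and old rats overlapped, and both HFHF-old rats were below the other 4. The log2 fold change of old against young was -0.09 (SE 0.347), with an edgeR quasi-likelihood adjusted p of 1.00. That of HFHF-old against old was -1.56 (SE 0.357, adjusted p = 0.918 over 15717 genes), and that of HFHF-old against young was -1.66 (SE 0.357, adjusted p = 0.606). None passed the threshold of adjusted p under 0.05 with edgeR, whereas DESeq2 gave HFHF-old against young an adjusted p of 0.0443.

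Of the other marker genes, only Ltc4s was called lower in the Ccl24 than in the Lyve1/Fcna macrophages. Ltc4s was at 122, 125, 26.8, 32.4 and 2.41 CPM in the Ccl24 macrophages of young 1 and 2, old 1 and 2 and HFHF-old 1. In the Lyve1/Fcna macrophages of the same rats it was at 361, 256, 117, 75.0 and 46.9, higher in all 5. The log2 fold change of Ccl24 against Lyve1/Fcna macrophages was -1.78 (SE 0.339, edgeR adjusted p = 0.0197). Negative macrophages had 55.5, 98.3, 22.3, 28.0 and 4.18, and that difference did not pass (0.43, SE 0.343, adjusted p = 0.700). In HFHF-old 1 only 6 of 198 Ccl24 macrophages held an Ltc4s UMI.

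Maf was at 237, 68.9, 63.3, 144 and 43.5 CPM in the Ccl24 macrophages and at 85.0, 40.8, 41.7, 40.2 and 38.2 in the negative macrophages. It was higher in the Ccl24 macrophages of all 5 rats, without passing the test (0.98, SE 0.221, edgeR adjusted p = 0.120). Against Lyve1/Fcna macrophages, at 360, 98.4, 138, 120 and 116, the difference was -0.61 (SE 0.214, adjusted p = 0.157), and old 2 was higher in the Ccl24 macrophages.

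No difference in Aif1 between the classes passed. Its level was 1227, 852, 934, 2474 and 251 in the Ccl24 macrophages, 720, 763, 1116, 2425 and 206 in the negative macrophages, and 1555, 999, 1280, 2365 and 552 in the Lyve1/Fcna macrophages. The differences were 0.12 (SE 0.223) and -0.35 (SE 0.218), with edgeR adjusted p of 0.891 and 0.447. The rats differed more than the classes did, with old 2 highest and HFHF-old 1 lowest in each class.

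**Figure D3:**
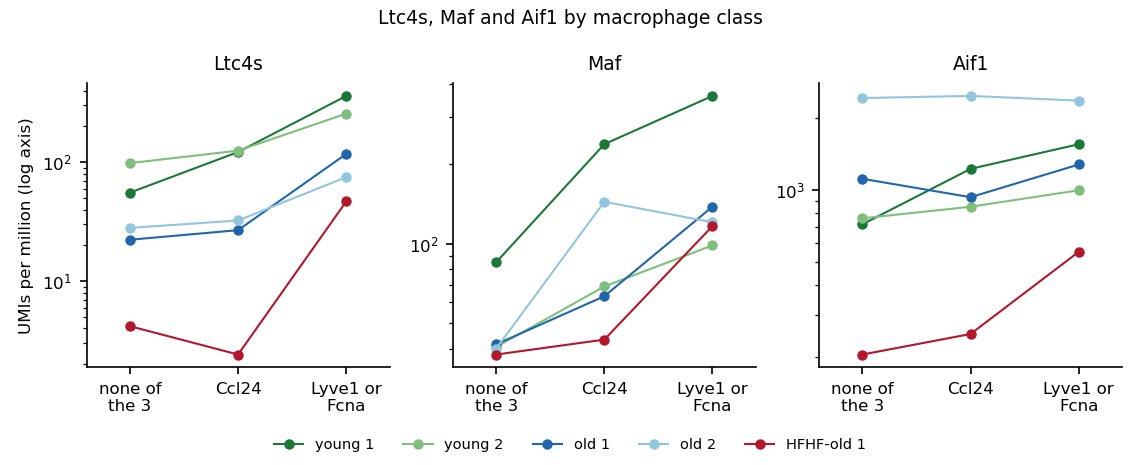
Ltc4s, Maf and Aif1 (CPM, log axis) in negative macrophages (none of the 3), Ccl24 macrophages and Lyve1/Fcna macrophages. Each line is 1 of 5 rats. Ltc4s rises between the last 2 classes in every rat, while Aif1 differs more between rats than between classes.

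Ccl24 varied across single macrophages most nearly with other genes of the Lyve1/Fcna class. Over the macrophages of each of 5 rats, the 10 genes with the highest mean Pearson correlation with Ccl24 were F13a1 (0.62), Cd163, Apoe, Fcna (0.58), Cfd, Ctsb, Fcgrt, Lyve1 (0.54), Mrc1 and Pf4 (0.52). The marker genes of the cells came later in that order, Maf at rank 48 (0.36), Aif1 at 85 (0.29) and Ltc4s at 102. The cells of a rat share a library and differ in depth, so these values are a description.

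Within the Ccl24 macrophages, levels of the same genes differed with the number of Ccl24 UMIs. Mrc1, the mannose receptor, stood in young 1 at 427 CPM in negative macrophages and at 1007, 1621 and 2157 in Ccl24 macrophages with 1, 2 and 3 to 9 Ccl24 UMIs. In old 2 the values were 277, 900, 1063 and 1748, and in HFHF-old 1 they were 155, 215, 445 and 905. The haemoglobin scavenger receptor Cd163 took the same order in young 1, at 148, 419, 818 and 1082. In young 2 and old 1 Mrc1 also climbed, from 308 and 253 in negative macrophages to 378 and 347 with 1 Ccl24 UMI and 1118 and 2015 with 3 to 9. Transcripts of other cells differed along the same steps, and were lower with more Ccl24 UMIs in most rats but not in all. From cells with 1 to cells with 3 to 9 Ccl24 UMIs, the insulin gene Ins1 went from 143850 to 17562 CPM in young 2, from 117007 to 1523 in old 1, from 70413 to 1907 in old 2 and from 43884 to 1270 in HFHF-old 1, against 1106 and 1555 in young 1. The collagen gene Col1a1 went from 1925 to 17.4 in HFHF-old 1, from 1172 to 291 in young 1 and from 127 to 45.8 in young 2. It went from 74.7 to 56.0 in old 1 and from 19.8 to 33.2 in old 2. The trypsinogen gene Prss1 went from 23420 to 7998 in young 2, from 7014 to 1086 in old 1 and from 1353 to 704 in old 2. It went from 1875 to 3719 in young 1 and from 7887 to 34615 in HFHF-old 1, there in 5 cells with 3 to 9 Ccl24 UMIs. The part of these transcripts in the differences was not tested. Cells with a single Ccl24 UMI, the bulk of the class, were the nearest to the negative macrophages for Mrc1 and Cd163 in every rat.

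Against negative macrophages, Ccl24 macrophages had higher levels of a few genes, of which Pf4 and Stab1 belong to the tissue residency list. Of 13222 genes tested with rat as a block, 4 passed an edgeR adjusted p under 0.05 with a fold over 1.5, all higher (0.0303% of genes tested), and 1461 had an unadjusted p under 0.05. They were Pf4, Stab1, F13a1 and Cd300lb, and each was higher in 5 of 5 rats. The gate genes are left out of all such counts. Because the UMIs that gated a cell were also among those summed, the counts were repeated on the split UMIs. There 72 genes passed, 36 higher and 36 lower, these 4 included. The 2 parts of a cell share its depth, so the split does not remove differences in depth. The classes also differed in how many of the 6 macrophage gate genes a cell held. Just 3 were held by 18.8%, 23.1%, 28.6%, 16.5% and 43.4% of Ccl24 macrophages in young 1 and 2, old 1 and 2 and HFHF-old 1. In negative macrophages it was 44.8%, 37.9%, 32.3%, 24.1% and 52.1%, and in Lyve1/Fcna macrophages 7.91%, 12.3%, 13.2%, 9.84% and 17.2%. Its part in the differences between classes was not tested.

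Pf4, platelet factor 4, a chemokine also made by resident macrophages, was at 385, 279, 284, 1745 and 120 CPM in the Ccl24 macrophages of young 1 and 2, old 1 and 2 and HFHF-old 1. Negative macrophages held 89.1, 89.4, 79.0, 268 and 75.3. Within each rat the Ccl24 macrophages were higher, and old 2 was the highest in both classes. The log2 fold change was 1.91 (SE 0.249, edgeR adjusted p = 0.0148).

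F13a1, the A chain of coagulation factor XIII, was at 446, 214, 152, 525 and 60.4 against 80.6, 59.5, 27.0, 52.8 and 42.1 (2.29, SE 0.352, edgeR adjusted p = 0.0371). Stab1, a scavenger receptor of tissue macrophages, was at 63.5, 33.7, 49.5, 101 and 15.7 against 12.2, 13.3, 8.79, 13.9 and 7.81 (2.14, SE 0.329, adjusted p = 0.0371). For both genes HFHF-old 1 had the lowest level in the Ccl24 macrophages and the smallest distance from the negative class. Cd300lb, an activating receptor of myeloid cells, was low throughout, at 7.83, 4.22, 6.88, 29.8 and 7.64 against 1.52, 1.96, 1.86, 4.05 and 2.09.

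Most genes of the tissue residency list were higher too. The classes were split on Ccl24, with which Cd163, Mrc1 and Pf4 of this list varied across the same macrophages. The lists were also chosen with earlier results of these data known. The counts below are thus not independent of the gate and are a description. Of its 13 genes tested besides the gate genes, 2 were called higher (Pf4 and Stab1), against 0.0303% of all genes tested, 12 had a positive log2 fold change, and the median was 0.98 against 0.01 over all genes tested. Cd163 (2.18, edgeR adjusted p = 0.0574), Selenop, a selenium transport protein (1.37, 0.0574), Mrc1 (1.28, 0.0574) and Gas6, a ligand of the receptors for apoptotic cells (0.95, 0.0528) fell just outside the threshold. On the split UMIs 6 of the 13 were called higher, against 0.304% of the 11848 genes tested there, including Selenop (1.36), Cd163 (2.09) and Mrc1 (1.12). The macrophage list without gate genes had 4 of 4 positive values and none called. The proliferation list had 15 genes tested, all with a negative value, none called.

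The count of 4 rested on the libraries used. Without young 1, old 2 or HFHF-old 2 it was 0, without old 1 it was 1, and without HFHF-old 1 it was 106. The gene left without old 1 was none of the 4, of which Pf4 came nearest (edgeR adjusted p = 0.0794). A gate at C1qa, C1qb and C1qc of at least 0.4% of UMIs, chosen after the data were seen, gave 196 genes, and thinning to 2000 UMIs gave 320 (183 higher and 137 lower), both including all 4. Without doublet-like cells F13a1 and Cd300lb did not pass (edgeR adjusted p = 0.0562 for each). With at least 4 macrophage genes Cd300lb did not pass (edgeR adjusted p = 0.0559).

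Against Lyve1/Fcna macrophages more genes passed with all UMIs and the gate as given. Of the 13222 genes, 246 passed (1.86%), with 168 lower (1.27%) and 78 higher (0.590%) in the Ccl24 macrophages. Of the 233 that carried a gene name, 203 moved the same way in all 5 rats. On the split UMIs 47 passed, 40 of them among the 246. The balance of directions depended on the setting, with 152 higher and 168 lower without doublet-like cells, 139 and 148 without young 2, 191 and 215 with DESeq2, and 5 and 42 on the split UMIs. The count was 22 without old 1, 47 without young 1 and 109 without HFHF-old 1.

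Among the 12 named genes with the largest decreases was Cfd, the complement protease factor D. It was at 177, 201, 259, 993 and 127 CPM in the Ccl24 macrophages of young 1 and 2, old 1 and 2 and HFHF-old 1, and at 980, 469, 1811, 2521 and 958 in the Lyve1/Fcna macrophages. Cfd was lower in all 5 rats (-2.19, SE 0.275, edgeR adjusted p = 0.00181). Negative macrophages were lower again in every rat, at 79.2, 111, 171 and 90.1 CPM in young 2, old 1 and 2 and HFHF-old 1, and lowest of all in young 1.

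Cd163 was at 580, 236, 120, 457 and 92.1 in the Ccl24 macrophages and 1431, 468, 842, 789 and 1129 in the Lyve1/Fcna macrophages (-1.99, SE 0.413, edgeR adjusted p = 0.0279). F13a1 and Pf4, higher than in negative macrophages, were lower than in Lyve1/Fcna macrophages (-2.13, adjusted p = 0.0111, and -1.17, adjusted p = 0.0305). In these levels the Ccl24 macrophages were intermediate for all 3 genes in every rat. The distance from the Lyve1/Fcna macrophages depended on the setting. For Pf4 it was 0.25 (edgeR adjusted p = 0.670) in cells with 3 or more Ccl24 UMIs, -0.44 (0.168) after thinning and -0.75 (0.256) on the split UMIs. For F13a1 it was -0.77 (0.351) at 3 or more Ccl24 UMIs and -1.49 (0.0877) on the split UMIs. Cd163 did not pass in either of these settings. Without young 1 or without old 1 none of the 3 passed, at adjusted p of 0.100 and 0.203 for Pf4 and 0.0525 and 0.103 for F13a1.

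Hmox1, haem oxygenase, which breaks haem down to biliverdin and iron, was at 95.7, 30.9, 22.7, 67.3 and 18.5 against 229, 84.7, 151, 177 and 167 in Lyve1/Fcna macrophages (-1.89, SE 0.297, edgeR adjusted p = 0.0084). Negative macrophages held 26.6, 24.0, 26.1, 39.9 and 22.0, more than the Ccl24 macrophages in old 1 and HFHF-old 1. The iron and haem list had 5 of 11 genes called lower (1.27% of all genes) and none higher, with a median of -0.56 against 0.01 over all genes. Besides Hmox1 and Cd163 these were the biliverdin reductases Blvra (-1.56) and Blvrb (-1.18) and the transferrin receptor Tfrc (-1.29).

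The other decreases among the 12 largest were Hpse, heparanase (-2.51), C6 of the membrane attack complex (-2.31), the mucin-like glycoprotein Pdpn (-2.19), the lectin Asgr2 (-2.15), the monocyte chemokine Ccl7 (-2.09), Foxred2 (-1.95), Rarres1 (-1.92) and Emp1 (-1.80). Each was lower in 5 of 5 rats. Ccl7, for example, was at 84.4, 41.2, 27.5, 198 and 90.9 in the Ccl24 macrophages and at 384, 131, 422, 504 and 228 in the Lyve1/Fcna macrophages. For C6 and Hpse the Ccl24 and negative macrophages did not pass a test against each other (-0.01 and 0.32, edgeR adjusted p = 0.997 and 0.810).

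Several gene lists had members lower in the Ccl24 macrophages. Of 13 tissue residency genes tested 7 were called lower, against 1.27% of all genes tested, and none higher. Their median was -1.17, and among them were the folate receptor Folr2 (-1.47), Selenop (-1.42), Mrc1 (-1.18) and Gas6 (-0.81). The lectin Cd209f had the largest difference (-3.90), at 3.48, 4.69, 0.688, 0 and 0.805 against 30.1, 22.1, 64.6, 56.0 and 14.3. In the alternative activation list 4 of 16 were lower (1.27% of all genes), all but Trem2, a lipid receptor (-0.95), shared with the residency list.

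Against the 1.27% of all genes tested that were called lower, 3 of 14 complement genes were lower, namely Cfd, properdin (Cfp, -1.13) and C2 (-1.02). Of 24 lipid handling genes 4 were lower, led by apolipoprotein E (Apoe, -1.71), which stood at 2534, 1256, 2234, 7729 and 1403 against 6094, 2453, 11274, 15549 and 6701. The scavenger receptor Cd36 (-0.93) and the cholesterol exporter Abca1 (-0.80) were among them. Of 18 lysosome genes 4 were lower (Ctsb -1.40, Ctsd -1.03, Hexa -0.79 and Lamp1 -0.77). None of the genes in these 3 lists was called higher.

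**Figure D4:**
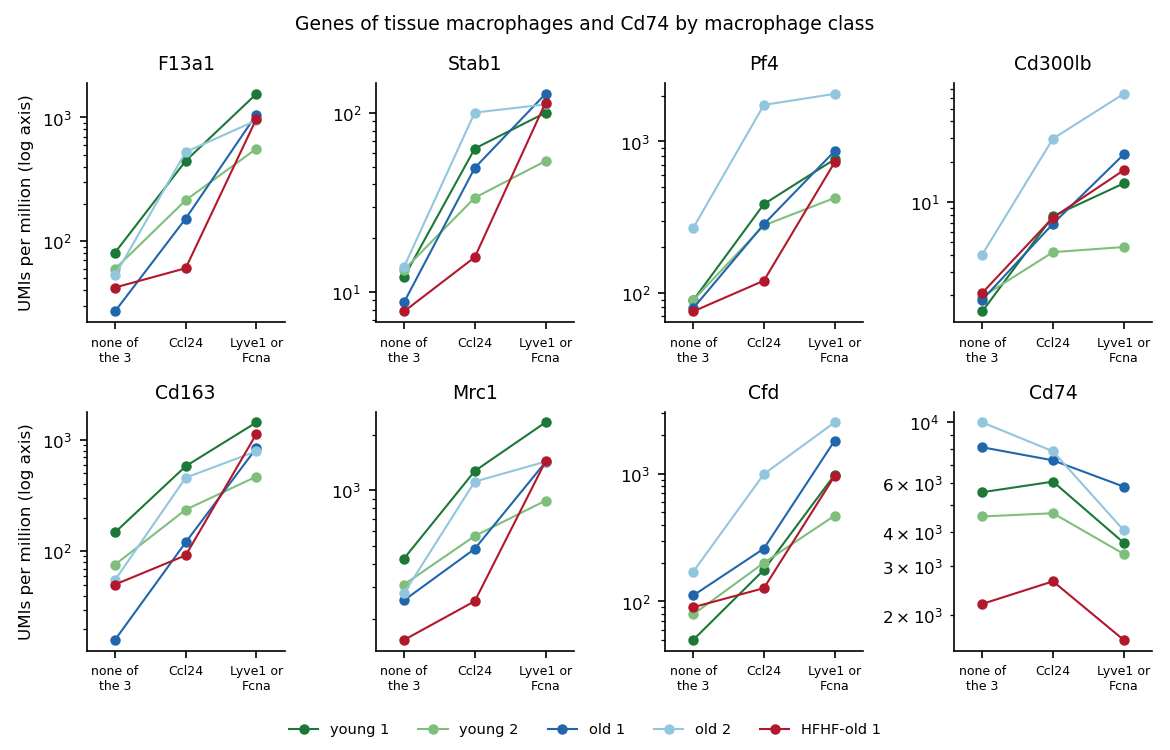
Levels of 8 genes (CPM, log axis) in negative macrophages (none of the 3), Ccl24 macrophages and Lyve1/Fcna macrophages, 1 line for each of 5 rats. F13a1, Stab1, Pf4, Cd300lb, Cd163, Mrc1 and Cfd are lowest in the negative and highest in the Lyve1/Fcna macrophages of every rat. Cd74 is higher in Ccl24 than in Lyve1/Fcna macrophages of each rat, which did not pass the test.

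Genes of antigen presentation did not pass in this comparison, and not all of them were higher. Cd74, the invariant chain of MHC class II, was at 6086, 4676, 7268, 7836 and 2649 CPM in the Ccl24 macrophages and at 3654, 3330, 5839, 4055 and 1625 in the Lyve1/Fcna macrophages, higher in all 5 rats (0.57, SE 0.168, edgeR adjusted p = 0.0922). None of 14 genes of MHC class II and costimulation was called, with a median of 0.29, and Ctss (-0.30) and Cd86 (-0.04) were among those lower. Under the C1q gate chosen after the data were seen 7 of 12 were called higher (Cd74 at 1.53), against 2.36% of 9222 genes tested. After thinning 6 of 13 were called higher, against 0.836% of 9810 genes. Against negative macrophages none of the 14 was called, and after thinning 5 of 13 were called lower, against 1.40% of genes.

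Among the gene lists, only the ductal list had genes called higher in Ccl24 than in Lyve1/Fcna macrophages. The 12 named genes that were higher included Epcam, an epithelial adhesion protein (1.22, SE 0.280, edgeR adjusted p = 0.0432), with Ptpn13 (1.18), Efhd1 (1.16), Tm4sf4 (1.14), Sh3gl2 (1.11), Smim22 (1.02), Arhgap42 (0.96), Qprt (0.92), Rtn1 (0.89), Atp8b1 (0.86), Sox5 (0.86) and the adhesion molecule Cadm1 (0.79). Epcam was at 114, 59.5, 109, 44.0 and 67.6 CPM against 19.3, 45.2, 38.9, 39.3 and 29.9. With Sox9, a transcription factor of pancreatic ducts (2.30, edgeR adjusted p = 0.0176), Epcam made 2 of 6 ductal genes called higher (0.590% of all genes), and all 6 had a positive value. Sox9 was at 39.2, 2.34, 44.7, 18.1 and 2.82 against 2.55, 1.66, 6.82, 3.82 and 2.21. In cells with 3 or more Ccl24 UMIs, Epcam (-0.90), Efhd1 (-1.50), Smim22 (-0.71), Arhgap42 (-0.87) and Rtn1 (-0.19) turned to lower.

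Markers of other cells were present in the Ccl24 macrophages at levels that differed between rats. The 7 ductal genes in the files summed to 377, 158, 811, 229 and 182 CPM in the Ccl24 macrophages and 94.2, 165, 149, 138 and 170 in the Lyve1/Fcna macrophages. The 10 endocrine genes summed to 14361, 251896, 191027, 105862 and 89412, and the 7 fibroblast genes to 6448, 777, 878, 635 and 10695. At least 3 fibroblast genes were detected in 28.2%, 25.8%, 11.9%, 4.03% and 42.9% of the Ccl24 macrophages, and hormone genes took over 10% of UMIs in 2.44%, 39.4%, 15.1%, 5.65% and 4.04%. Young 2 was thus highest in hormone transcripts and HFHF-old 1 in fibroblast genes. The part of these transcripts in the differences between classes and groups was not tested.

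The macrophage identity of the cells was strongest in old 2 and weakest in HFHF-old 1. The 11 macrophage genes summed to 6156, 3683, 3933, 9948 and 1712 CPM, with only Marco at 0, in every rat. The 3 C1q genes took a median of 0.530%, 0.308%, 0.399%, 0.877% and 0.0739% of the UMIs of a Ccl24 macrophage. In HFHF-old 1, 43.4% of the Ccl24 macrophages held just 3 of the 6 gate genes, against 16.5% to 28.6% in the other 4 rats. Cells most like simulated doublets were 16.0%, 8.70%, 5.56%, 18.1% and 5.56% of them in those rats, and they were kept. They were 14.2%, 8.44%, 13.5% and 10.6% of all cells in young 1 and 2, old 2 and HFHF-old 1, and old 1 had the lowest share of the 5.

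No gene passed in the comparison of Ccl24 macrophages between groups. Of 11264 genes tested in 5 rats, edgeR called 0 (0%) in old against young, 0 in HFHF-old against old and 0 in HFHF-old against young, with 472, 1191 and 942 genes at an unadjusted p under 0.05. DESeq2 called 11, 113 and 20. The fit has 2 residual degrees of freedom. The genes below were named by the smallest p or from fixed lists, none of them passed, and the old rats enter the first and second comparison and the young rats the first and the last.

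Ltc4s, of the marker genes, differed between the 3 groups without overlap. In the Ccl24 macrophages it was at 122 and 125 CPM in young rats, 26.8 and 32.4 in old rats and 2.41 in HFHF-old 1. Young rats were the highest and HFHF-old 1 the lowest. UMIs of Ltc4s were found in 96 of 287, 154 of 368, 20 of 126, 23 of 248 and 6 of 198 cells. The log2 fold change was -2.25 for old against young (SE 0.406, edgeR adjusted p = 0.985), -3.69 for HFHF-old against old (SE 0.602, adjusted p = 0.333) and -5.94 for HFHF-old against young (SE 0.666, adjusted p = 0.299). In the same 5 rats this order also held in the negative and the Lyve1/Fcna macrophages given above. HFHF-old replicate 2 departed from it, with Ltc4s at 42.1 CPM in its 47 negative macrophages, above both old rats, and at 67.5 in its 25 Lyve1/Fcna macrophages, below them. The young and old rats overlapped for the genes upstream in leukotriene synthesis. Alox5, the 5-lipoxygenase, was at 71.4 and 42.2, 18.6 and 67.3, and 9.66, and Alox5ap, its activating protein, at 230 and 172, 116 and 375, and 62.8.

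Hpgds, the prostaglandin D2 synthase of blood cells, was at 80.1 and 18.3 CPM in young rats, 2.06 and 1.29 in old rats and 5.23 in HFHF-old 1. Young rats were above the others, with UMIs in 66 and 36 cells against 3, 1 and 9 (old against young -4.65, SE 0.642, edgeR adjusted p = 0.892). In the list of eicosanoid genes, 7 of 15 tested had a positive value in old against young, and the median was -0.08 against -0.02 over all genes.

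Genes of dividing cells were low in old rats. Top2a, a topoisomerase of the S and G2 phases, was at 40.9 and 32.8 in young rats, 0.688 and 1.29 in old rats and 62.4 in HFHF-old 1 (old against young -5.34, SE 0.497, edgeR adjusted p = 0.143, and HFHF-old against old 5.83, SE 0.529, adjusted p = 0.0705). Mki67 was at 30.5 and 33.3, 4.13 and 1.29, and 51.9. All 12 proliferation genes tested had a negative value in old against young, with a median of -2.26. Few cells carried these UMIs, since Top2a was detected in 8, 17, 1, 1 and 18 cells, and 1 cell held 38 of the 70 UMIs in young 2 and 78 of the 155 in HFHF-old 1.

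Il1b, Rgs2, Gdf15 and Cd86 had higher levels in old rats, without passing. Il1b, interleukin 1 beta, was at 54.0 and 36.1 CPM in young rats, 185 and 351 in old rats and 47.5 in HFHF-old 1, with both old rats highest (old against young 2.47, SE 0.419, edgeR adjusted p = 0.955). It was detected in 11.5% and 12.2% of the cells of young rats, 50.8% and 36.3% of those of old rats and 12.6% of those of HFHF-old 1. In negative macrophages Il1b was at 232 in both old rats, 47.8 in HFHF-old 1 and 311 in HFHF-old 2. Rgs2, a brake on G protein signals, was at 103 and 53.4, 282 and 282, and 139 (1.80, SE 0.312, adjusted p = 0.955). Gdf15, a stress-induced cytokine, was at 5.22 and 4.69, 26.1 and 32.4, and 14.9 (2.38, SE 0.446, adjusted p = 0.985), with 22 of the 38 UMIs of old 1 in 1 cell. The costimulator Cd86 was at 33.1 and 19.2, 68.8 and 77.7, and 24.5 (1.41, adjusted p = 0.985). Il6, interleukin 6, of the inflammatory list, went the other way, at 15.7 and 0.937 in young rats, 0 in both old rats and 68.4 in HFHF-old 1, with 18, 2 and 170 UMIs in young 1, young 2 and HFHF-old 1. In the list of inflammatory cytokines and NF-kB, 13 of 17 genes had a positive value, with a median of 0.30.

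The class II gene RT1-Bb was high in both old rats. It was at 16.5 and 35.1 CPM in the Ccl24 macrophages of young rats, 2623 and 1307 in old rats and 51.1 in HFHF-old 1 (old against young 5.93, SE 0.883, edgeR adjusted p = 0.895). The gap was as wide in the negative macrophages, at 53.7 and 35.2, 2881 and 1680, and 47.5, with HFHF-old 2 between at 414. Class II genes vary between animals of an outbred strain such as Wistar, and whether all alleles of RT1-Bb were counted alike was not tested. Its neighbour in the same class II molecule, RT1-Ba, was at 848 and 872, 2476 and 2121, and 708, and the RT1-D genes RT1-Db1 at 1075 and 1239, 4419 and 4026, and 1198. Old rats were the highest for each of these genes, by a far smaller factor than for RT1-Bb. Of 13 genes of MHC class II and costimulation 12 had a positive value, with a median of 0.94.

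Fabp5, a fatty acid binding protein, was at 105 and 37.0, 10.3 and 7.76, and 60.0 (old against young -2.92, SE 0.415, edgeR adjusted p = 0.892). Gpihbp1, a lipoprotein lipase anchor of capillaries, was at 40.0 and 30.5, 0.688 and 2.59, and 0, and Adamts19, a matrix protease, at 25.2 and 0.469, 0 and 0, and 94.6. Slc26a3, an anion exchanger of epithelia, had 41 UMIs in old 1, all in 1 cell, and 77 in HFHF-old 1, in 2 cells. The unnamed gene AC127784.2 completed the 5 higher and 5 lower genes with the smallest p in old against young. Among the markers of other cells, Gzma, granzyme A of cytotoxic lymphocytes, was at 80.9 and 109, 3.44 and 7.77, and 20.5 (-4.36, SE 0.635, adjusted p = 0.892). All genes tested of the lists for NK cells (8), fibroblasts (7), endothelium (6) and acinar cells (11) had a negative value in old against young, with medians of -1.10, -2.58, -1.89 and -1.84. Not every list of other cells went this way. Positive values were found for 5 of 6 ductal genes (median 0.81), 5 of 6 dendritic cell genes (1.09) and 2 of 3 mesothelial genes (0.87). The part of transcripts from such cells in the differences between groups was not tested.

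**Figure D5:**
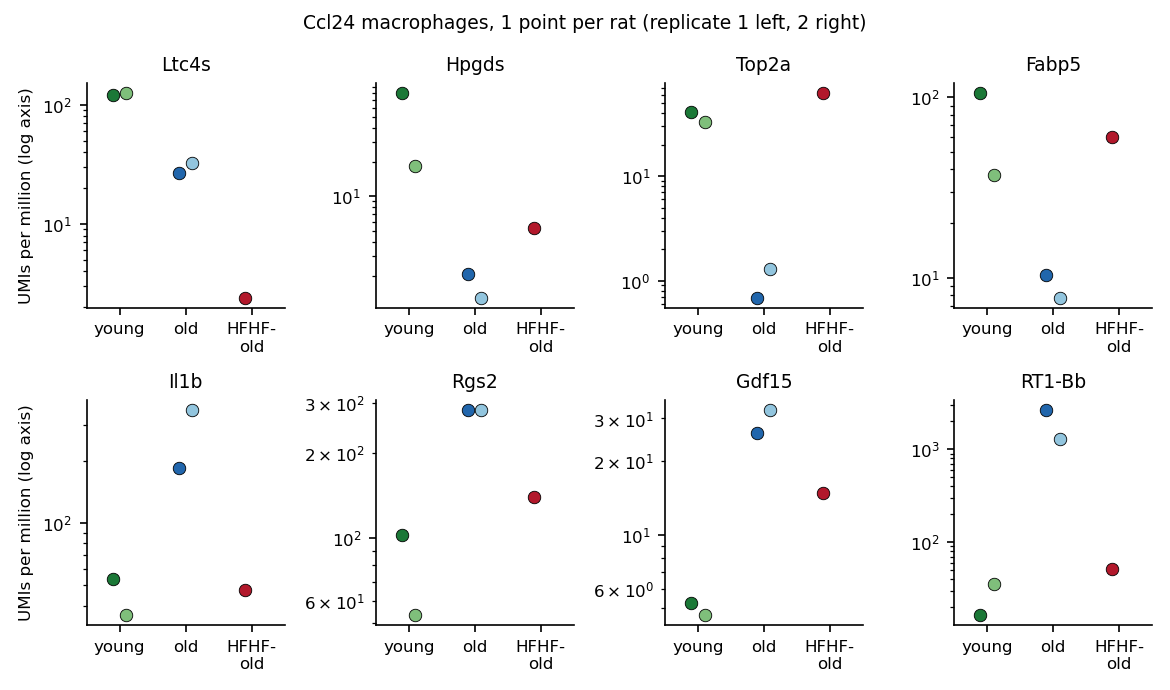
Levels of 8 genes (CPM, log axis) in the Ccl24 macrophages of young, old and HFHF-old rats, 1 point per rat, with HFHF-old replicate 2 left out for its 2 cells. Ltc4s is highest in young rats and lowest in HFHF-old 1, Hpgds, Top2a and Fabp5 are lowest in old rats, and Il1b, Rgs2, Gdf15 and RT1-Bb are highest in old rats. None of these differences passed the test.

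Next to old rats, HFHF-old 1 had low levels of several myeloid genes in its Ccl24 macrophages. Adgre1 (F4/80), a receptor of tissue macrophages, was at 245 and 305 CPM in old rats, 269 and 127 in young rats and 53.5 in HFHF-old 1, where 1 cell held 44 of the 133 UMIs (HFHF-old against old -2.48, SE 0.455, edgeR adjusted p = 0.333). Clec5a, a receptor of myeloid cells, was at 32.3 and 29.8 in old rats and 4.43 in HFHF-old 1 (-2.91, adjusted p = 0.333). Pdzk1ip1 (28.9 and 24.6 against 2.01) and Sctr, the secretin receptor of ducts (73.6 and 42.7 against 1.61), completed the 5 lower genes with Ltc4s. HFHF-old 1 was below both old rats for each.

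The higher genes were Top2a, AC142181.2, Wfdc1 (89.3 against 2.06 and 1.29, SE 0.479, edgeR adjusted p = 0.0705), Apoa4 and Lgals4. Apoa4, an intestinal apolipoprotein, had 118 UMIs in HFHF-old 1, of which 114 were in 1 cell, and Lgals4, a galectin of gut epithelium, had 77 UMIs with 75 in 1 cell. These values belong to single cells and not to the 198 Ccl24 macrophages of that rat. All 11 tissue residency genes tested had a negative value in HFHF-old against old (median -1.78 against -0.04 over all genes), and all 7 fibroblast genes a positive one (median 4.05). Of 18 genes of the dissociation response, the immediate early and heat shock genes that tissue digestion induces, 17 had a positive value in HFHF-old against old (median 0.89) and 16 in HFHF-old against young (median 1.05). The 20 genes of that list in the files summed to 14087 and 3586 CPM in young rats, 7542 and 10278 in old rats and 14750 in HFHF-old 1. Their part in the differences was not tested. The lower C1q share and higher fibroblast genes of HFHF-old 1 given above moved with both.

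Against young rats, HFHF-old 1 was lower in Ltc4s, Gpihbp1, Ch25h, cholesterol 25-hydroxylase (120 and 52.5 against 8.45, -3.48, edgeR adjusted p = 0.471), Cox4i2 (8.70 and 12.7 against 0) and the kinase Nuak1 (87.0 and 33.3 against 9.26). It was higher in AC142181.2, Lgals4, Apoa4, Wfdc1 and Slc26a3. The number of genes called in HFHF-old against old was 305 without young 1 and 271 without young 2, and in HFHF-old against young 183 without young 1.

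The difference of old from young rats in Ccl24 macrophages was set against that in negative macrophages. Of 11902 genes tested for the difference of the differences, edgeR called 0 (0%), with 607 at an unadjusted p under 0.05 and 3 called by DESeq2. After thinning 47 passed. No age difference particular to Ccl24 macrophages was therefore called in the test as designed.

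The partners of Ccl24 were nearly absent from these cells. Ccr3, its receptor, had 0, 2, 0, 0 and 0 UMIs in the Ccl24 macrophages of young 1 and 2, old 1 and 2 and HFHF-old 1, and the eosinophil granule gene Epx had 0 in each. Siglec5, a sialic acid lectin also in the eosinophil list, was the most abundant gene of that list. It was at 48.7, 32.3, 16.5, 6.47 and 9.26 CPM in the same rats, lowest in old 2. Siglec5 was lower than in Lyve1/Fcna macrophages (-1.20, SE 0.256, edgeR adjusted p = 0.0321). The receptor chains for interleukins 4 and 13, Il4r (54.0, 24.4, 34.4, 31.1 and 35.8) and Il13ra1 (40.0, 11.7, 35.1, 20.7 and 43.1), were present in every rat. None of the 6 genes of the eotaxin and type 2 list tested between groups was called, and neither was any other of the 11264 genes tested.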

How the data were processed

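The deposited count matrices, 1 per rat, hold UMI counts of 32883 genes. Per the file headers they come from cellranger 5.0.0, and the submitters' processing notes name Cell Ranger and build Rnor_6.0. The authors did not normalize them. Matrices were read with numpy 2.4.6 in Python 3.11.15 (scipy 1.17.1, scikit-learn 1.9.0, matplotlib 3.10.9). UMIs were summed per rat and class of at least 10 cells and tested in R 4.3.3 with the edgeR 4.0.16 quasi-likelihood test (TMM, filterByExpr), with group as the term between rats and rat as a block between classes. A gene counted as called with a Benjamini-Hochberg adjusted p under 0.05 and a fold over 1.5. SE is the log2 fold change divided by the root of F. DESeq2 1.42.0 was an alternative. The 12 gate genes stayed in the fits and in the adjustment of p and out of every count of genes, and of them only Ccl24, in the sum of all macrophages, is given with its test. Doublets were kept and, in an alternative, left out by likeness to simulated doublets at 0.8% per 1000 barcodes.

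Named genes were the 12 largest changes per direction between classes (called, mean at least 20 CPM, same direction in every rat), the 5 smallest p per direction between groups, and members of fixed lists. The members and lists were chosen with earlier results of these data known. The fits were tested on simulated data. Same-numbered rats were not taken as pairs. The deviations of young 1 and old 1 from their group means had a correlation of 0.033. With 2 rats per group the replicates numbered 2 give the same value, and HFHF-old rats were not used. A batch shared by same-numbered rats was thus not tested.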

Additional observations from a re-analysis of the deposited data

How the results depend on the processing

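The rat is the replicate, 2 per group. The fits have 2 residual degrees of freedom for Ccl24 macrophages between groups, 3 for all macrophages and 9 for the classes, and counts of genes moved with most settings. At this depth 11271 of 32883 genes had enough UMIs to be fitted in the Ccl24 macrophages. Beside the values printed, 138 of 191 answers kept their direction and side of the threshold, or their count within 1.5 times. In the order old against young, HFHF-old against old, HFHF-old against young, Ccl24 against negative macrophages and Ccl24 against Lyve1/Fcna macrophages, edgeR called 0, 0, 0, 4 and 246 genes. DESeq2 called 11, 113, 20, 85 and 406, and 3 for the difference of old from young between classes, and moved Ccl24 in all macrophages of HFHF-old against young to -1.62 with an adjusted p past the threshold. Splitting the UMIs gave 69 and 29 for the HFHF-old comparisons and 72 and 47 for the classes. Thinning gave 2 and 5 for the HFHF-old comparisons, 320 against negative macrophages and 47 for the difference of differences, and turned the share of old against young to -0.452 points. At least 4 macrophage genes gave 2, 4, 17 and 144 in the last 4 of the 5 comparisons. Ccl24 at 3 UMIs or more gave 57 genes in old against young, among 2898 tested, 380 and 7 for the classes, and a share difference of -0.02. The C1q gate, chosen after seeing the data, gave 6, 9, 196 and 552, and 2 for the difference of differences. Leaving out the top 1% of gene number gave 13 and 154 for the classes, and no filter on low counts 47 and 393. As a percent of all cells the difference of old from young was -1.004 points. The cause was not tested for any of these.

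With each rat left out in turn, the counts ran from 0 to 0, 0 to 305, 0 to 183, 0 to 106 and 22 to 329, and from 0 to 13 for the difference of differences. The Ccl24 fold change in all macrophages ran from -0.34 to 0.10 in old against young, -1.94 to -1.28 in HFHF-old against old and -2.03 to -1.37 in HFHF-old against young. The share differences ran from -1.431 to 1.97, -3.876 to -2.612 and -4.675 to -1.274 points. HFHF-old against either group could not be fitted in Ccl24 macrophages without HFHF-old replicate 1. With the replicate number as a block the 3 group comparisons called 0, 0 and 0 genes, and with no replicate block (rat left out) the class comparisons called 0 and 2.

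Of 1968 values of named genes under an alternative 1489 kept direction and side, 347 fell below and 102 passed the threshold, and 30 reversed. Against Lyve1/Fcna macrophages these were, at 3 Ccl24 UMIs, Epcam (-0.90), Efhd1 (-1.50), Smim22 (-0.71), Arhgap42 (-0.87), Rtn1 (-0.19), Maf (0.13), Aif1 (0.20), Pf4 (0.25), Stab1 (0.23), Cd300lb (0.04) and Siglec5 (0.30), under the C1q gate Atp8b1 (-0.22), Sox5 (-0.74) and Aif1 (0.22), and after thinning Sox5 (-0.29). Against negative macrophages Aif1 became -0.11 with 4 macrophage genes, -0.05 on split UMIs, -0.05 under the C1q gate and -0.03 without young replicate 1. C6, at -0.01, became 0.07 without the top 1% of gene number, 0.22 without doublet-like cells and with DESeq2, 0.41 with 4 macrophage genes, 1.18 after thinning and 0.71 on split UMIs, and ran from -0.63 to 0.43 with a rat left out. With a rat left out of old against young, Aif1 ran from -0.26 (without old replicate 2) to 1.13 and Maf from -1.21 to 0.04 (without young replicate 1).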

Other observations

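The 2 Ccl24 macrophages of HFHF-old replicate 2 held 9560 UMIs together. Both held exactly 1 Ccl24 UMI, neither held Ltc4s, and 1 of them carried all 28 Il1b UMIs.

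Clec7a or Olr1, pattern and oxidized lipid receptors of myeloid cells, were detected in 18.5% and 23.6% of the Ccl24 macrophages of young rats, 54.8% and 29.0% of those of old rats and 27.8% of those of HFHF-old 1. In Lyve1/Fcna macrophages the values were 12.9% and 19.3%, 48.4% and 38.6%, and 44.1%. Of these 5 rats old 1 was the highest in both classes. In HFHF-old replicate 2 the share was higher still, at 76.0% (19 of 25) of Lyve1/Fcna and 76.6% of negative macrophages, where the other rats had 28.3% and 32.2%, 62.9% and 56.7%, and 20.2%.

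Il33, an alarmin of stromal and epithelial cells, was at 189 and 16.9 CPM in the Ccl24 macrophages of young rats, 61.2 and 22.0 in old rats and 322 in HFHF-old 1. The fibroblast genes of the same cells had their highest sums in young 1 and HFHF-old 1 as well. The part of fibroblast transcripts in the Il33 level was not tested.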
